A study of Mus musculus with 12 samples.

Results

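The genes described here encode the subunits, activators and assembly chaperones of the proteasome, measured in cultured mouse microglia. They were taken as every probe set of the array whose only gene symbol begins with Psma, Psmb, Psmc, Psmd, Psme or Psmg and ends in digits, which gave 47 genes among the 19938 genes of the table. Where a gene had several such probe sets, the one with the highest mean over the 12 arrays stood for it, so the expression levels below are descriptions. Primary microglia of C57BL/6J pups, selected on postnatal day 7 with magnetic CD11b beads, were grown for 3 days and treated for 6 hours. The 4 groups of 3 arrays each were oligomeric Aβ42 (10 µM) together with AE1-329 (100 nM), Aβ42 with the vehicle of AE1-329, AE1-329 with the vehicle of Aβ42, and both vehicles (0.4% DMSO and 0.001% ethanol). Aβ42 is the amyloid peptide that accumulates in plaques of Alzheimer's disease, and AE1-329 is an agonist of EP4, a receptor of prostaglandin E2. Each replicate number marks a litter of pups that gave cells to all 4 groups, so a replicate is a litter and not a single animal.

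The proteasome degrades proteins tagged with ubiquitin. Its 20S core is a barrel of α and β rings, with the proteolytic sites on the β subunits Psmb5, Psmb6 and Psmb7, and the 19S cap, built of Psmc ATPases and Psmd subunits, binds, unfolds and feeds in the substrate. In cells exposed to interferon, the catalytic subunits Psmb8, Psmb9 and Psmb10 replace the constitutive ones to form the immunoproteasome, and Psme1 and Psme2 form the PA28 activator. Both favour peptides that suit MHC class I presentation, and microglia, the resident macrophages of the brain, make them when activated. The 47 genes comprised 5 of the immunoproteasome and PA28, 8 of the α ring, 8 of the β ring counted as constitutive, 6 19S ATPases, 14 Psmd genes, 2 other activators and 4 Psmg assembly chaperones. The α-ring genes include the testis form Psma8, and the β-ring genes counted as constitutive include the thymus subunit Psmb11.

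The deposited values were log2 expression, with array medians between 6.97 and 7.05. Vehicle replicate 1 stood apart from the other vehicle arrays. In it, 24 of the 47 genes (51.1%) lay at least 0.2 log2 units above (8 genes) or below (16 genes) both other vehicle arrays, against 18.0% of all genes, and no other array had more than 2 such proteasome genes. The largest gaps were in the core genes Psma2 (1.05 above the mean of the other vehicle arrays) and Psmb6 (0.75 below it, a difference of -0.75) and the ATPase gene Psmc6 (0.99 above). The median SD of the 47 genes was 0.146 among vehicle arrays, against 0.046 to 0.062 in the other groups. Values without vehicle replicate 1 are given beside many, but not all, of the results that it moves. Of 10 microglial marker genes 9 were measured, among them Csf1r, Trem2 and Cx3cr1, with vehicle means of 12.58, 12.73 and 11.84. The mean of these 9 was 10.55 to 10.59 per array with Aβ42 and AE1-329, 10.73 to 10.78 with Aβ42 alone, 10.71 to 10.77 with AE1-329 alone and 10.85 to 10.90 with vehicle, so it differed between groups. The mean of 7 endothelial and mural markers was 7.06 to 7.21 with both agents, 7.01 to 7.14 with Aβ42 alone, 7.17 to 7.36 with AE1-329 alone and 6.99 to 7.15 with vehicle, so the arrays of AE1-329 alone lay above those of vehicle and of Aβ42 alone. Of these markers, named after their values were seen, Pecam1 (1.22) and Kdr (0.64) rose with AE1-329 alone against vehicle and Flt1 fell (-0.44). The mean of 7 oligodendrocyte markers was 7.15 to 7.22, 7.22 to 7.33, 7.17 to 7.31 and 7.27 to 7.44 in the same order, lower with both agents than with vehicle. The means of 8 astrocyte markers (7.37 to 7.5, 7.34 to 7.48, 7.33 to 7.5 and 7.17 to 7.46) and 7 neuron markers (6.71 to 6.96, 6.76 to 6.95, 6.76 to 7.08 and 6.79 to 6.96) overlapped between all groups. The mean of 8 lymphocyte markers (5.84 to 6.02, 5.86 to 6.01, 5.84 to 5.90 and 5.81 to 6.03 in the same order) and of 7 monocyte and neutrophil markers (5.93 to 6.12, 6.03 to 6.11, 5.98 to 6.06 and 6.00 to 6.07) overlapped between all groups. The part of these markers in the results was not tested, and a change in the share of a cell type cannot be told apart from a change of RNA per cell.

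**Figure D1:**
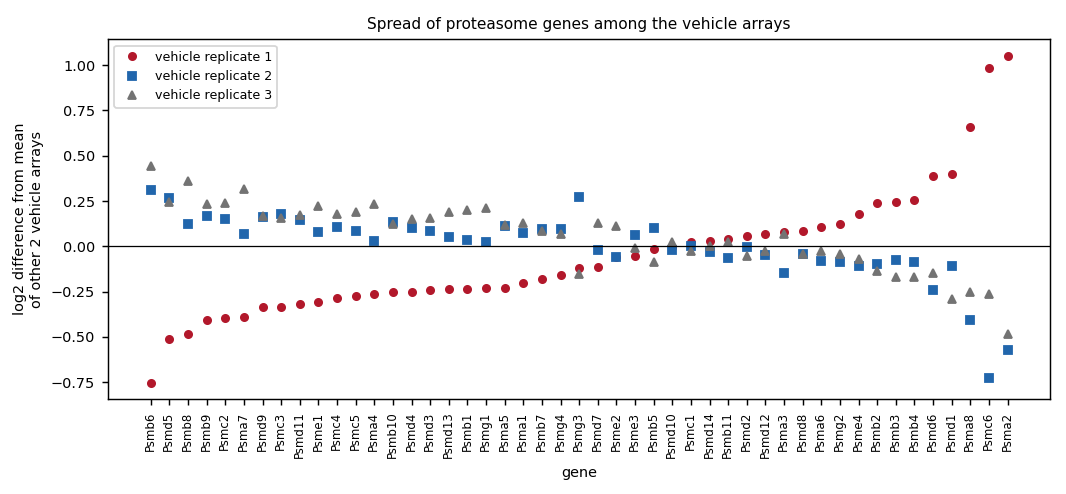
Difference of each vehicle array from the mean of the other 2 vehicle arrays (y axis, log2 units) for the proteasome genes (x axis), ordered by replicate 1. Replicate 1, the red circles, ran from -0.75 for Psmb6 to 1.05 for Psma2.

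Aβ42 alone against vehicle asked how microglia respond to the oligomeric peptide. Of the 47 genes, 22 rose and 1 fell at a Benjamini-Hochberg adjusted p under 0.05 (limma), against 10.7% of all genes higher and 14.8% lower (25.6% in either direction). The median change was 0.17 on the log2 scale over the 47 genes and 0.02 over all genes, and 40 of the 47 lay above 0. In 23 genes all 3 Aβ42 arrays lay above all 3 vehicle arrays and in 1 they lay below, against 16.4% and 18.6% of all genes. The genes that rose belonged to the immunoproteasome and PA28 (4 of 5), the Psmd genes (8 of 14), the α ring (4 of 8), the 19S ATPases (3 of 6), the constitutive β ring (2 of 8) and the other activators (1 of 2). The median change was 0.42 in the immunoproteasome and PA28, 0.27 in the ATPases, 0.27 in the Psmd genes, 0.24 in the α ring and 0.10 in the β ring. These medians were 0.26, 0.24, 0.28, 0.31 and 0.10 in the same order without vehicle replicate 1, so the order of the groups depends on that array. Without vehicle replicate 1 the counts were again 22 and 1, but with other genes: Psma2, Psmc6, Psmd1 and Psmd6 then rose, and Psmb5, Psmc2, Psmd4 and Psme1 did not pass. Of all genes 11.5% were then higher and 17.1% lower.

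**Figure D2:**
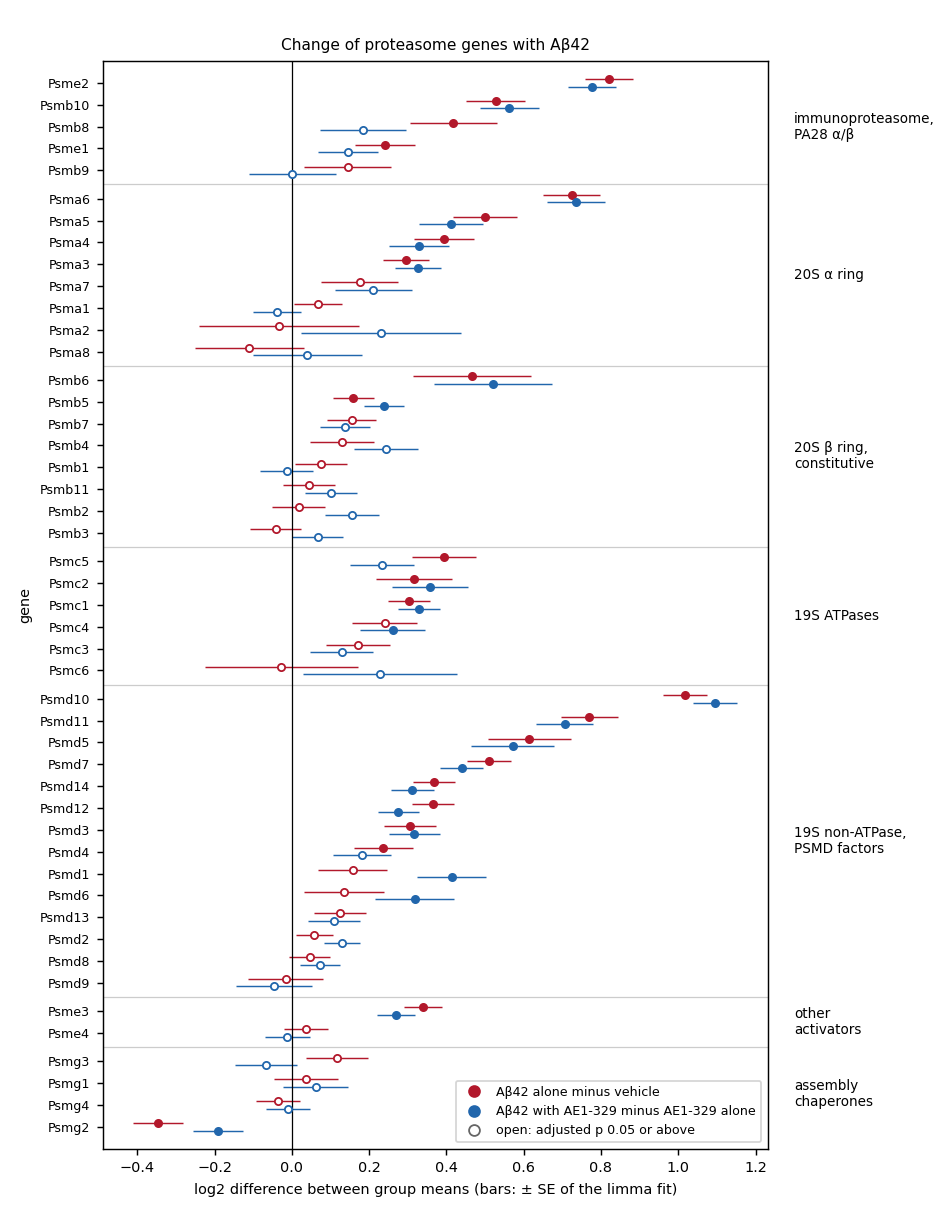
Change of each of the 47 genes with Aβ42 (x axis, log2 difference between means of 3 arrays, bars ± SE), by role, without AE1-329 (red) and with it (blue). Psmd10 had the largest change of both (1.02 and 1.10), and Psmg2 was the one gene that passed on the lower side.

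Within the immunoproteasome and PA28, Psme2, the β subunit of PA28, changed most. Its log2 expression was 11.84, 11.95 and 11.87 with Aβ42 and AE1-329, 12.07, 12.01 and 12.11 with Aβ42 alone, 11.03, 11.09 and 11.21 with AE1-329 alone, and 11.20, 11.20 and 11.32 with vehicle. Every array that had received Aβ42 lay above every array that had not. With Aβ42 alone Psme2 was 1.77-fold higher than with vehicle (log2 difference 0.82 ± 0.06 SE, adjusted p = 3.9e-07). A second probe set, annotated to Psme2 and its near-identical copy Psme2b and left out of the count, rose by 0.57 (adjusted p = 0.00146 over all probe sets), and how far the 2 genes share signal is uncertain. Psme1, the α subunit, had 10.71, 10.77 and 10.79 with both agents, 10.79, 10.82 and 10.89 with Aβ42 alone, 10.62, 10.57 and 10.65 with AE1-329 alone, and 10.39, 10.65 and 10.74 with vehicle. The Aβ42 arrays lay above the vehicle arrays by a narrow margin. Psme1 rose by 0.24 ± 0.08 (adjusted p = 0.036), and this call was lost without vehicle replicate 1 (0.14, adjusted p = 0.078) and without any 1 of the 3 Aβ42 arrays (adjusted p = 0.062, 0.075 and 0.122 for replicates 1, 2 and 3).

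Of the inducible catalytic subunits, Psmb10 had the largest change. It measured 10.03, 10.00 and 10.19 with both agents, 10.28, 10.35 and 10.43 with Aβ42 alone, 9.49, 9.53 and 9.52 with AE1-329 alone, and 9.66, 9.91 and 9.91 with vehicle. The 4 groups did not overlap, and their order from high to low was Aβ42 alone, both agents, vehicle and AE1-329 alone. Psmb10 was 1.44-fold higher with Aβ42 alone than with vehicle (0.53 ± 0.08, adjusted p = 0.000157). Psmb8 gave 8.86, 9.01 and 9.01 with both agents, 9.12, 9.27 and 9.28 with Aβ42 alone, 8.73, 8.77 and 8.84 with AE1-329 alone, and 8.49, 8.89 and 9.05 with vehicle. All 3 Aβ42 arrays were above the vehicle arrays, which spread over a wider range than any other group. Psmb8 rose by 0.42 ± 0.11 (adjusted p = 0.0138), and by 0.26 without vehicle replicate 1 (adjusted p = 0.021). The call was lost without Aβ42 replicate 2 (adjusted p = 0.051) or 3 (adjusted p = 0.052) and when only these 6 arrays were fitted (adjusted p = 0.063). Psmb9 measured 8.95, 9.20 and 9.14 with both agents, 9.03, 9.17 and 9.32 with Aβ42 alone, 9.0, 9.12 and 9.17 with AE1-329 alone, and 8.76, 9.14 and 9.19 with vehicle. Its groups overlapped throughout, and its difference of 0.14 ± 0.11 did not pass (adjusted p = 0.420, 95% interval -0.10 to 0.39). Without vehicle replicate 1 the difference was 0.01.

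**Figure D3:**
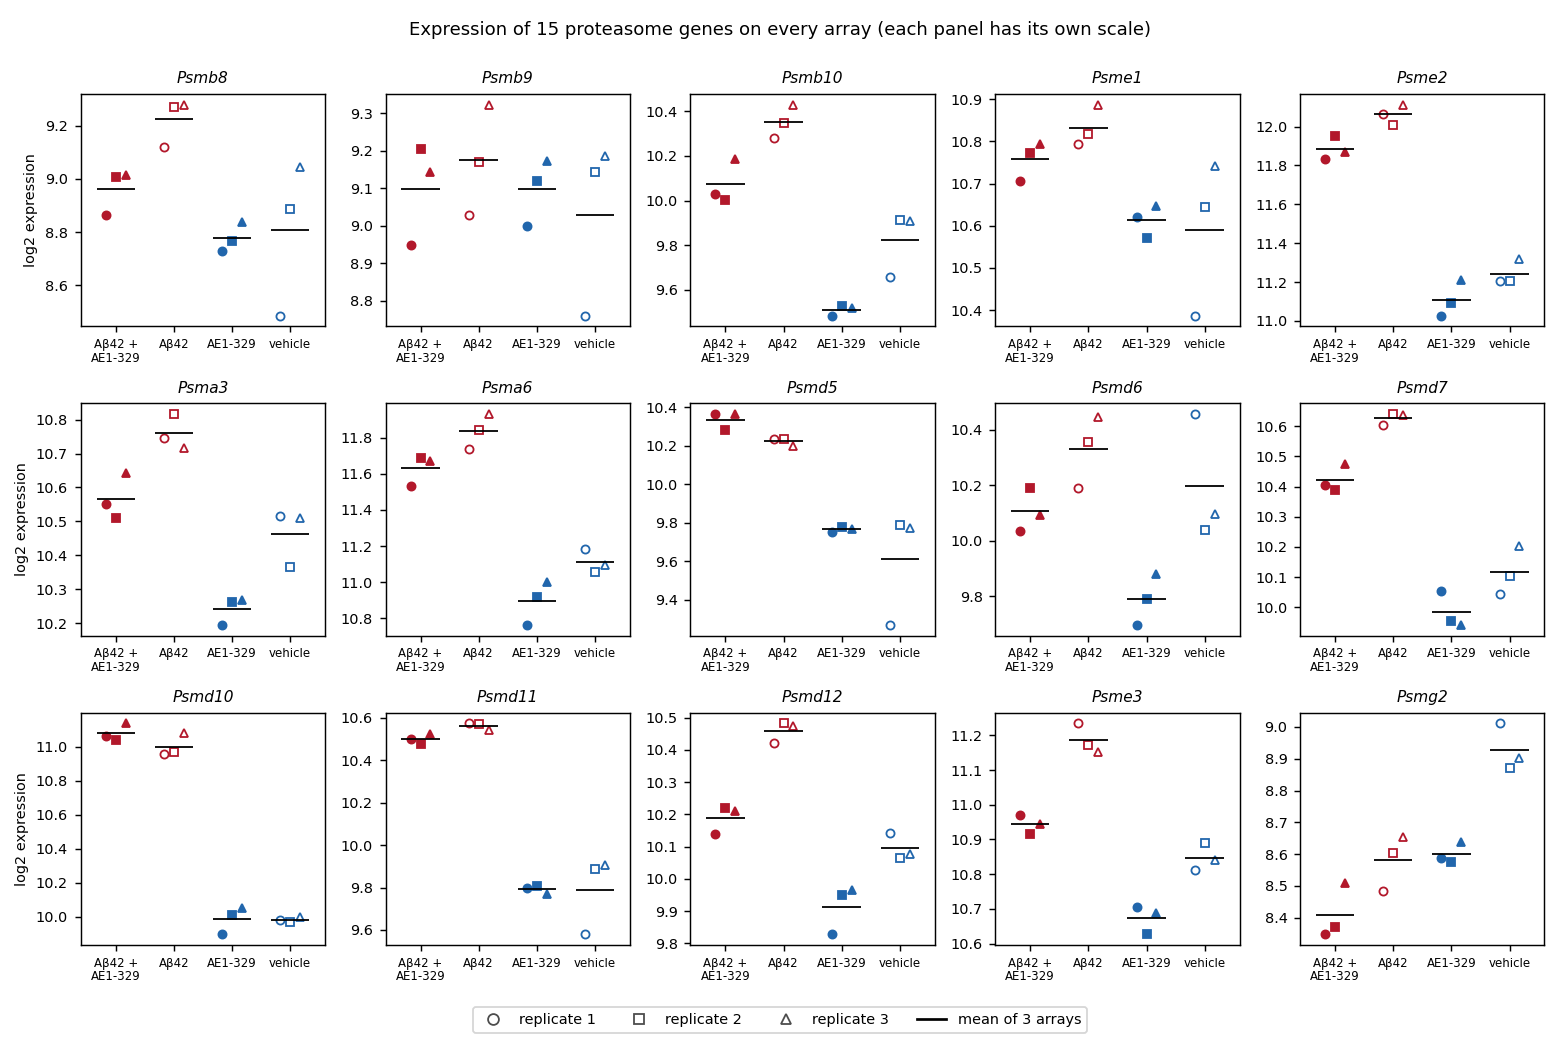
Log2 expression (y axis, a scale of its own in each panel) of 15 proteasome genes on every array, by group on the x axis. Symbols mark replicates and lines the mean of 3 arrays, and in Psme2 and Psmd10 the 6 arrays with Aβ42 lie above the 6 without.

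Psmb9 lies head to head with Tap1, which encodes a subunit of the peptide transporter of MHC class I loading. In the RefSeq annotation of GRCm38.p6 the starts of Tap1 (+ strand) and Psmb9 (- strand) are 226 bases apart, and the 225 bases between them (chr17:34187331-34187555, + strand) are shown because Tap1 rose with Aβ42 alone and Psmb9 did not pass. Beside the Psmb9 value of 0.14, Tap1 rose by 0.91 ± 0.15 (adjusted p = 0.00056), and the difference between the genes was not tested. The promoter of Psmb8 (250 bases before its start, chr17:34197945-34198194, + strand) and that of Psme2 (chr14:55591102-55591351, - strand, 1 of 2 windows of this gene in the table) are given with it. Capitals mark matches, on either strand, to a gamma-activated site (GAS, TTCNNNGAA) in Psmb8, a GC box (GGGCGG) in Psme2, and a CCAAT box and a GC box in the shared interval.
Tap1 and Psmb9: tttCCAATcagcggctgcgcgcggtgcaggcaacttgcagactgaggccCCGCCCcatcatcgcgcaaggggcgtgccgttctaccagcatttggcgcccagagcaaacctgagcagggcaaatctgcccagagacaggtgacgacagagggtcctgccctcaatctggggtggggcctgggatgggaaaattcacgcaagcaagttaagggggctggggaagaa
Psmb8: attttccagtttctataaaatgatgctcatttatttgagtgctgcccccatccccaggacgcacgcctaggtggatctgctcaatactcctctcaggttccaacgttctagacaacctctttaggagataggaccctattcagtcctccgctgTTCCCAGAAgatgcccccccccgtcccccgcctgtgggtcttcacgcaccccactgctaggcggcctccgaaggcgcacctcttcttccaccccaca
Psme2: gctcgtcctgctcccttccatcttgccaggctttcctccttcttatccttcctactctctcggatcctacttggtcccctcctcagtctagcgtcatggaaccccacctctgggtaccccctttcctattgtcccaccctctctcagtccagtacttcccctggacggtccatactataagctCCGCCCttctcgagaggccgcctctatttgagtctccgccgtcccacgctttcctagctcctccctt

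The GAS letters stood 97 to 89 bases before the start of Psmb8. Of the 47 genes 39 had a promoter window in the table, and Psma8, Psmb1, Psmb2, Psmb7, Psmc3, Psmd3, Psmd7 and Psmg2 had none. GAS letters were found in 2 of the 39 (Psmb8 and Psmg1), against 8.13% of the windows of 27025 genes. The letters of an interferon-stimulated response element (ISRE, searched as 2 runs of GAAA with 2 bases of any kind between them) were found in 3 of the 39 (Psmb3, Psmd4 and Psmd9), against 3.46% of genes. None of the 5 immunoproteasome and PA28 genes held them in these windows. Such a match is a description of letters and not a mapped site.

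Of the 16 core genes outside the immunoproteasome, which include Psma8 and Psmb11, 6 rose with Aβ42 alone. Psma6, an α-ring subunit, measured 11.53, 11.69 and 11.67 with both agents, 11.73, 11.84 and 11.93 with Aβ42 alone, 10.76, 10.92 and 11.00 with AE1-329 alone, and 11.18, 11.06 and 11.09 with vehicle. The 6 arrays with Aβ42 lay above the 6 without. Psma6 was 1.65-fold higher with Aβ42 alone than with vehicle (0.72 ± 0.07, adjusted p = 7.92e-06). The α-ring genes Psma5 (0.50), Psma4 (0.39) and Psma3 (0.30) also rose. Other probe sets of the same genes rose as well, by 0.32 and 0.33 for Psma3 and 0.41 for Psma5. Whether the probe sets used for these genes and for Psmb3 match near-identical copies elsewhere in the genome was not tested, so the signal of these 3 genes is uncertain. The other α-ring differences did not pass: Psma7 0.18, Psma1 0.07, Psma2 -0.03 and Psma8, a testis form of low signal here, -0.11. In the β ring Psmb6, the caspase-like subunit, rose by 0.47 ± 0.15 (adjusted p = 0.0396), and by 0.22 without vehicle replicate 1. Psmb5, the chymotrypsin-like subunit, rose by 0.16 ± 0.05 (adjusted p = 0.0436). Each of these calls held in 6 of 19 alternatives, with adjusted p of up to 0.133 for Psmb6 and 0.157 for Psmb5. Psmb7, the trypsin-like subunit, had a difference of 0.15 that did not pass (adjusted p = 0.107), but did with litter as a block (adjusted p = 0.0362). The differences of Psmb4 (0.13), Psmb1 (0.08), the thymus subunit Psmb11 (0.04), Psmb2 (0.02) and Psmb3 (-0.04) did not pass.

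The inducible subunits were also set against the constitutive subunits that they replace, as a description with no test. The change in Psmb8 relative to the vehicle mean minus that in Psmb5 was -0.05 ± 0.11 with both agents, 0.26 ± 0.13 with Aβ42 alone, 0.01 ± 0.09 with AE1-329 alone and 0 ± 0.30 with vehicle (SD, n = 3). For Psmb10 minus Psmb7 it was 0.11 ± 0.05, 0.37 ± 0.02, -0.32 ± 0.04 and 0 ± 0.04 in the same order. For Psmb9 minus Psmb6 it was -0.48 ± 0.06, -0.32 ± 0.09, 0.04 ± 0.07 and 0 ± 0.20. Relative to vehicle replicates 2 and 3 alone, the Psmb8 values were -0.20 with both agents, 0.10 with Aβ42 alone and -0.15 with AE1-329 alone. The Psmb10 values were then 0.08, 0.35 and -0.34, and the Psmb9 values -0.37, -0.21 and 0.15. The Psmb10 pair did not overlap between the groups, whereas the values of the Psmb8 and Psmb9 pairs depend on vehicle replicate 1. Without that array the Psmb8 value with AE1-329 alone moved from 0.01 to -0.15.

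In the 19S cap, Psmd10 had the largest change of the 47 genes. It encodes gankyrin, an assembly chaperone of the cap, and measured 11.07, 11.04 and 11.14 with both agents, 10.96, 10.97 and 11.08 with Aβ42 alone, 9.90, 10.01 and 10.05 with AE1-329 alone, and 9.98, 9.97 and 10.00 with vehicle. The 6 arrays with Aβ42 lay clear of the 6 without. It was 2.02-fold higher with Aβ42 alone than with vehicle (1.02 ± 0.06, adjusted p = 2.34e-08). Psmd11, a lid subunit that helps hold the cap on the core, gave 10.50, 10.47 and 10.52 with both agents, 10.57, 10.57 and 10.54 with Aβ42 alone, 9.80, 9.81 and 9.77 with AE1-329 alone, and 9.58, 9.89 and 9.91 with vehicle. These groups too split by Aβ42 with no overlap. Psmd11 was 1.71-fold higher (0.77 ± 0.07, adjusted p = 4.02e-06). Psmd5, another assembly chaperone of the cap, measured 10.36, 10.28 and 10.36 with both agents, 10.24, 10.24 and 10.20 with Aβ42 alone, 9.75, 9.78 and 9.76 with AE1-329 alone, and 9.27, 9.79 and 9.77 with vehicle. It rose by 0.61 ± 0.11 (adjusted p = 0.0007), and by 0.44 without vehicle replicate 1, its lowest array.

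The promoter windows of Psmd10 (chrX:140956712-140956961, - strand) and Psmd11 (chr11:80428365-80428614, + strand) are shown because these are the Psmd genes with the largest changes. Capitals mark CCAAT boxes (CCAAT, or ATTGG on the other strand) and a GC box in Psmd10, and an NF-kB motif and a GC box in Psmd11, with no overlap between them.
Psmd10: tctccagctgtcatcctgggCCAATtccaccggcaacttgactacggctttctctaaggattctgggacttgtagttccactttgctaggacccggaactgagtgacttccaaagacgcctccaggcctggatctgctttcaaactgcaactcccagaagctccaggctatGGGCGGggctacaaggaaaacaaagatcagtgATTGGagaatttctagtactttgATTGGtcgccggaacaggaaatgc
Psmd11: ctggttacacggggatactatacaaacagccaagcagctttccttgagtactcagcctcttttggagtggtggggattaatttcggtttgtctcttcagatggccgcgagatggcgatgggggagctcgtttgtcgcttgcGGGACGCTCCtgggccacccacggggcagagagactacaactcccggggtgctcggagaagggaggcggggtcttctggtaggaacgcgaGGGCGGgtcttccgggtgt

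Psmd10 held 3 CCAAT letters, of which those on the opposite strand ended 43 and 20 bases before the start. CCAAT was present in 14 of the 39 proteasome windows (35.9%), against 37.49% of all genes. The GC box was present in 22 (56.41%), against 35.36% of all genes. The NF-kB motif was present in 6 (15.38%: Psma6, Psma7, Psmd11, Psmd12, Psmd13 and Psme4), against 8.23%. The antioxidant response element bound by NFE2L1 and NFE2L2 (TGACNNNGC) was present in 5 (12.82%: Psmb5, Psmb6, Psmc6, Psmd9 and Psmd12), against 11.52%. Of the 20 genes with a window that rose with Aβ42 alone, 10 held the GC box, 8 the CCAAT box, 3 the NF-kB motif and 3 the antioxidant element. Of the 19 others, 12, 6, 3 and 2 did.

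Among the other lid subunits, Psmd7, the partner of the deubiquitinase Psmd14, measured 10.40, 10.39 and 10.47 with both agents, 10.60, 10.64 and 10.64 with Aβ42 alone, 10.05, 9.96 and 9.94 with AE1-329 alone, and 10.04, 10.11 and 10.20 with vehicle. It rose by 0.51 ± 0.06 with Aβ42 alone (adjusted p = 1.42e-05), with no overlap between those groups. Psmd14 (0.37), Psmd12 (0.37) and Psmd3 (0.30) rose too, as did the ubiquitin receptor Psmd4 (0.24). The Psmd4 call was lost without vehicle replicate 1 (0.15, adjusted p = 0.106) and, without replicate 2 or 3 of Aβ42 alone or replicate 2 of AE1-329 alone. Psmd1 (0.16), Psmd6 (0.13), Psmd13 (0.13), Psmd2 (0.06), Psmd8 (0.05) and the assembly chaperone Psmd9 (-0.02) did not pass. Of the ATPases, Psmc5 rose by 0.39, Psmc2 by 0.32 and Psmc1 by 0.30. The second probe set of Psmc1 had 0.23 and did not pass (adjusted p = 0.1695 over all probe sets). Psmc2 did not pass without vehicle replicate 1 (0.18, adjusted p = 0.077) or without Aβ42 replicate 2 or 3. Psmc4 (0.24, adjusted p = 0.057, and 0.00692 with litter as a block), Psmc3 (0.17) and Psmc6 (-0.03) did not pass.

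Psme3, which forms the nuclear activator PA28γ, measured 10.97, 10.91 and 10.94 with both agents, 11.23, 11.17 and 11.15 with Aβ42 alone, 10.71, 10.63 and 10.69 with AE1-329 alone, and 10.81, 10.89 and 10.84 with vehicle. The 4 groups did not overlap and had the same order as for Psmb10. Psme3 was 1.27-fold higher with Aβ42 alone than with vehicle (0.34 ± 0.05, adjusted p = 0.000163). Psme4, a large activator of the core, had a difference of 0.04 that did not pass. Among the chaperones that assemble the α ring, Psmg2 fell. Its values were 8.35, 8.37 and 8.51 with both agents, 8.48, 8.60 and 8.65 with Aβ42 alone, 8.59, 8.58 and 8.64 with AE1-329 alone, and 9.01, 8.87 and 8.90 with vehicle. All 9 treated arrays lay below the 3 vehicle arrays. Psmg2 was 1.27-fold lower with Aβ42 alone (-0.35 ± 0.06, adjusted p = 0.00114), and its partner Psmg1 (0.04), Psmg3 (0.12) and Psmg4 (-0.04) did not pass.

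Genes that act with the proteasome or upstream of it were taken from lists. With Aβ42 alone 10.7% of all genes were higher and 14.8% lower. Of 11 measured inducers of the immunoproteasome, 6 rose and 1 fell with Aβ42 alone. Irf1, a transcription factor of the interferon response, rose by 1.73 ± 0.10, Stat2 by 1.00 ± 0.13 and the NF-kB subunit Rela by 0.50 ± 0.06. Irf9 (0.39), Ifngr2 (0.20) and Ifnar1 (0.17), named after their values were seen, also rose, and Irf8 fell (-0.93 ± 0.06). The interferon genes Ifnb1 (0.11) and Ifng (-0.07) did not pass. Of 9 measured class I processing genes, 5 rose: Tap1 (0.91), Tapbpl (0.47), Tapbp (0.43), Tap2 (0.39) and, named after its value was seen, the peptide trimming enzyme Erap1 (0.38). Nlrc5, the transactivator of class I genes, did not pass (0.13, adjusted p = 0.253), but did without vehicle replicate 1 (0.20, adjusted p = 0.0491). Nfkb1, H2-K1 and H2-D1 had no probe set with a single symbol and were not analysed here.

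Of 14 measured partners of the proteasome outside the symbol rule, 4 rose and 2 fell with Aβ42 alone, against 10.7% and 14.8% of all genes. Without vehicle replicate 1, 5 rose and 2 fell, against 11.5% and 17.1% of all genes. Paaf1, Adrm1 and Ddi2 were on the list but not measured. Zfand5, a zinc finger protein that stimulates the proteasome, rose by 0.94 ± 0.07. Txnl1, a redox protein bound to the cap, rose by 0.48 ± 0.07. Nfe2l1 and Nfe2l2, transcription factors known to induce proteasome genes, rose by 0.45 ± 0.05 and 0.39 ± 0.09. Zfand2a, a relative of Zfand5, fell (-0.51 ± 0.07), as did Akirin2, named after its value was seen (-0.23 ± 0.06). Pomp, which matures the core, had -0.14 and did not pass. Of 8 measured ubiquitin, shuttle and segregase genes, 5 rose and 1 fell. They included the ubiquitin-binding autophagy receptor Sqstm1 (0.95 ± 0.06), the segregase Vcp (0.33) with its cofactor Nploc4 (0.35), and the shuttles Rad23b (0.28) and, named after its value was seen, Ubqln1 (0.16). Ubqln2 fell (-0.29), also named after its value was seen, and did not pass without vehicle replicate 1 (-0.18, adjusted p = 0.0545).

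Aβ42 with AE1-329 against Aβ42 alone asked what the EP4 agonist does to cells that receive the peptide. Of the 47 genes none rose and 4 fell, against 5.99% and 5.04% of all genes. At an unadjusted p under 0.05 the limma fit had none higher and 12 lower, against 10.9% and 10.0% of all genes. The median difference was -0.08 over the 47 genes and -0.02 over all genes. In 3 genes all arrays with both agents lay above those with Aβ42 alone and in 16 all lay below, against 15.9% and 16.1% of all genes. The 4 genes that fell were Psmb10, the lid genes Psmd12 and Psmd7, and Psme3.

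Psmd12 measured 10.14, 10.22 and 10.21 with both agents, 10.42, 10.48 and 10.47 with Aβ42 alone, 9.83, 9.95 and 9.96 with AE1-329 alone, and 10.14, 10.06 and 10.08 with vehicle. The arrays with both agents lay between those of Aβ42 alone and of AE1-329 alone and touched the vehicle range. Psmd12 was 1.21-fold lower with both agents than with Aβ42 alone (-0.27 ± 0.05, adjusted p = 0.00537), and Psme3 was 1.18-fold lower (-0.24 ± 0.05, adjusted p = 0.00592). Both calls held in all 19 alternatives. Psmb10 was 1.21-fold lower (-0.28 ± 0.08, adjusted p = 0.0321). Its call was lost without replicate 1 or 2 of the combined treatment (adjusted p = 0.117 and 0.122) or replicate 2 or 3 of Aβ42 alone (adjusted p = 0.086 and 0.134), and the difference stayed between -0.34 and -0.24 when single arrays were left out. Psmd7 was 1.15-fold lower (-0.20 ± 0.06, adjusted p = 0.0339) and did not pass without any 1 of the 6 arrays compared or without replicate 2 of AE1-329 alone. The other immunoproteasome and PA28 genes lay below 0 and did not pass: Psmb8 -0.26 (adjusted p = 0.196), Psme2 -0.18 (adjusted p = 0.098), Psmb9 -0.08 and Psme1 -0.08. For Psmb8 the adjusted p was 0.049 with litter as a block and 0.019 without vehicle replicate 1.

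With litter as a block 7 genes fell, the 4 above and Psma5, Psmb8 and Psmg1, against 6.05% of all genes. Without vehicle replicate 1, which enters this comparison only through the shared variance, 8 fell, the 4 above and Psma2, Psma3, Psmb8 and Psmg1, against 7.05% of all genes. Without replicate 1 or 2 of the combined treatment, or replicate 2 or 3 of Aβ42 alone, 2 fell. In the lists, Irf1 fell (-0.71 ± 0.10), as did Stat2 (-0.45 ± 0.13), Irf9 (-0.35 ± 0.08) and Irf8 (-0.35 ± 0.06), and Ifnar1 rose (0.23 ± 0.05), 1 higher and 4 lower of 11. Of the class I genes 3 of 9 fell, Tap1 (-0.55 ± 0.15), Tap2 (-0.26) and Tapbpl (-0.26). Nlrc5 (-0.20; adjusted p = 0.0465 without vehicle replicate 1), Nfe2l1 (0.05) and Nfe2l2 (0.07) did not pass. Of the partners 2 of 14 fell, Zfand5 (-0.35) and the cap-bound deubiquitinase Usp14 (-0.32). The 8 ubiquitin genes lay between -0.19 and 0.12 and did not pass. The list counts stand against 5.99% of all genes higher and 5.04% lower. Without vehicle replicate 1, 5 class I genes and 2 ubiquitin genes fell. Of the inducers 2 then rose and 4 fell, and of the partners 1 rose and 2 fell, against 8.47% of all genes higher and 7.05% lower.

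**Figure D4:**
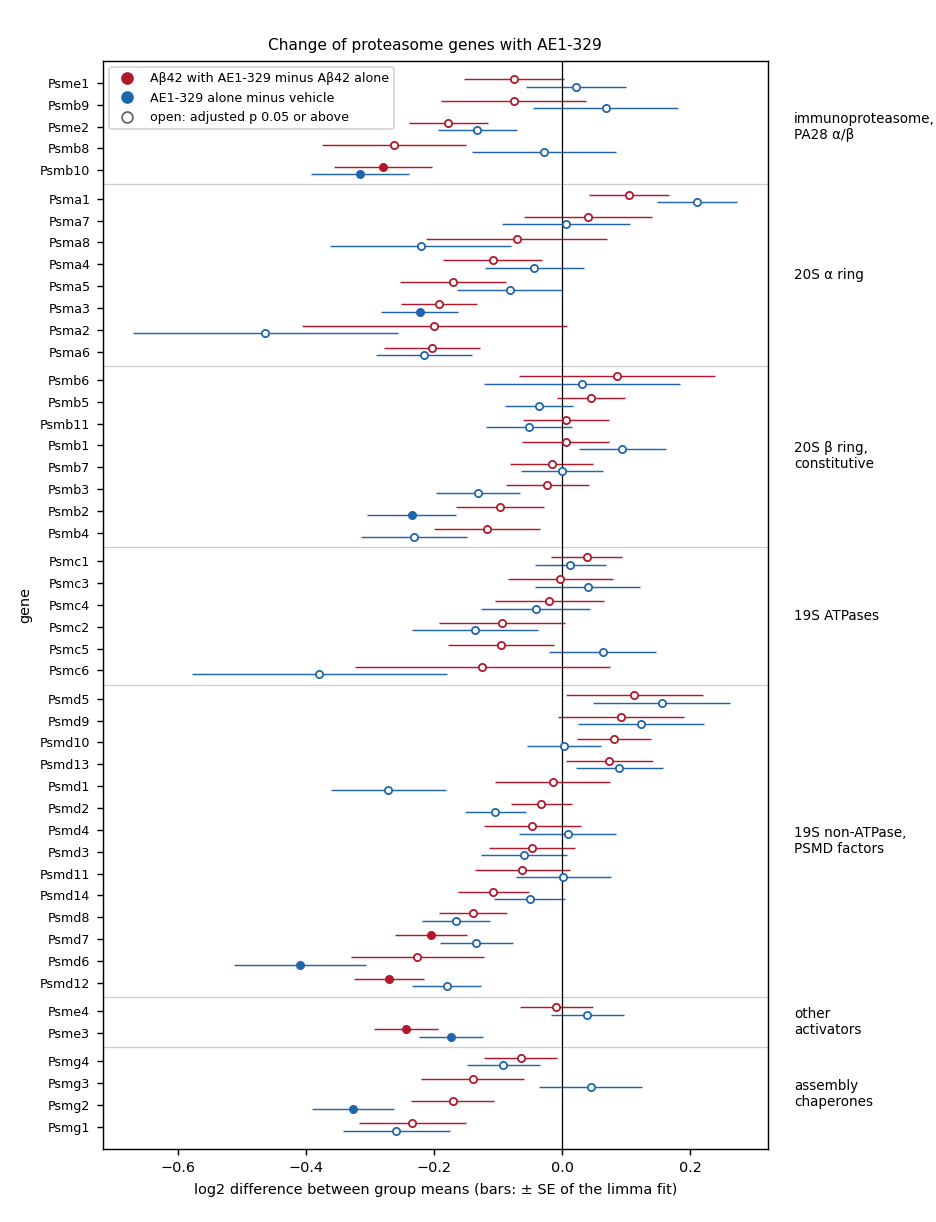
Change of each of the 47 genes with AE1-329 (x axis, log2 difference between means of 3 arrays, bars ± SE), by role, with Aβ42 (red) and without it (blue). Psmb10 and Psme3 are filled on the lower side in both, and no gene is filled on the higher side.

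AE1-329 alone against vehicle asked what the agonist does without the peptide. None of the 47 genes rose and 6 fell, against 4.71% and 5.45% of all genes. At an unadjusted p under 0.05 the limma fit had 1 higher and 15 lower, against 9.73% and 11.4% of all genes. The median difference was -0.05, against -0.01 over all genes, and -0.11 without vehicle replicate 1. In 2 genes the arrays with AE1-329 all lay above vehicle and in 14 all lay below, against 10.4% and 12.6% of all genes. Without vehicle replicate 1 none rose and 7 fell, against 4.89% and 6.87% of all genes: Psmb10, Psmd6, Psme3, Psmg2 and also Psmb6 (-0.22, adjusted p = 0.0418), Psmc2 (-0.27, adjusted p = 0.0308) and Psmg1. When the arrays were quantile normalized again, 1 rose and 6 fell. Psmg2 was 1.25-fold lower (-0.33 ± 0.06, adjusted p = 0.00523), a call that held in all 19 alternatives. Psmb10 was 1.24-fold lower (-0.32 ± 0.08, adjusted p = 0.0179), and -0.40 without vehicle replicate 1 (adjusted p = 0.00195). Its call was lost without any 1 of the 3 AE1-329 arrays (adjusted p = 0.067, 0.051 and 0.054 for replicates 1, 2 and 3) or vehicle replicate 2 or 3 (adjusted p = 0.061 and 0.058).

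The lid gene Psmd6 measured 10.03, 10.19 and 10.09 with both agents, 10.19, 10.36 and 10.45 with Aβ42 alone, 9.70, 9.79 and 9.88 with AE1-329 alone, and 10.46, 10.04 and 10.10 with vehicle. The AE1-329 arrays were the lowest of the 12, and vehicle replicate 1 was the highest. Psmd6 was 1.33-fold lower with AE1-329 alone than with vehicle (-0.41 ± 0.10, adjusted p = 0.023), and -0.28 without vehicle replicate 1 (adjusted p = 0.0496), and the call was lost without replicate 1 or 2 of AE1-329 alone (adjusted p = 0.097 and 0.070). Psma3 measured 10.55, 10.51 and 10.64 with both agents, 10.75, 10.82 and 10.71 with Aβ42 alone, 10.19, 10.26 and 10.27 with AE1-329 alone, and 10.52, 10.36 and 10.51 with vehicle. It was 1.17-fold lower (-0.22 ± 0.06, adjusted p = 0.0313), which did not pass without any 1 of the 3 AE1-329 arrays or without vehicle replicate 1 or 3. With all probe sets tested its adjusted p was 0.0595, and 2 other probe sets of Psma3 had -0.22 (adjusted p = 0.0557) and -0.21 (adjusted p = 0.0457). Psmb2 (-0.24, adjusted p = 0.0494) and Psme3 (-0.17, adjusted p = 0.0425) each kept the call in 6 of 19 alternatives. Psmb2 did not pass with litter as a block (adjusted p = 0.0555) and was -0.16 without vehicle replicate 1. Psmb8 (-0.03), Psmb9 (0.07), Psme1 (0.02) and Psme2 (-0.13) did not pass.

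With litter as a block Psma1 rose (0.21, adjusted p = 0.0215, against 0.051 without the block), and Psmd12 (-0.18, adjusted p = 0.0477) and Psmg1 (-0.26, adjusted p = 0.0164) fell, which made 1 higher and 7 lower, against 6.06% and 6.58% of all genes. Without any 1 of the AE1-329 arrays 1 or 2 genes fell. In the lists Irf1 (0.20, adjusted p = 0.285) did not pass, and the 2 inducers that rose were Ifnar1 (0.23) and Ifngr2 (0.17). The class I genes lay between -0.11 and 0.19 and did not pass, and of the partners Usp14 (-0.38) and Txnl1 (-0.35) fell. Nlrc5 (-0.05), Nfe2l1 (-0.14) and Nfe2l2 (-0.01) did not pass, nor did any of the 8 ubiquitin genes. Without vehicle replicate 1, 2 ubiquitin genes fell, and of the inducers 2 rose and 1 fell. Of all genes 4.89% were then higher and 6.87% lower.

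Aβ42 with AE1-329 against AE1-329 alone measured the response to the peptide in cells that had the agonist. Of the 47 genes 21 rose and 1 fell, against 9.77% and 12.2% of all genes, with a median of 0.23, against 0.01 over all genes. In 36 genes the arrays with both agents all lay above those with AE1-329 alone and in 3 all lay below, against 19.4% and 20.7% of all genes. Psmd10 was 2.14-fold higher (1.10 ± 0.06, adjusted p = 1.19e-08), Psme2 1.71-fold (0.78 ± 0.06), Psma6 1.67-fold (0.74 ± 0.07), Psmd11 1.63-fold (0.71 ± 0.07) and Psmb10 1.48-fold (0.56 ± 0.08). Psmd5 (0.57), Psmd7 (0.44) and Psme3 (0.27) rose as well. Psmb8 (0.18, adjusted p = 0.320), Psme1 (0.14, adjusted p = 0.244) and Psmb9 (0.00, adjusted p = 0.997) did not pass, although the groups did not overlap in Psmb8 and Psme1. Psmg2 fell (-0.19 ± 0.06, adjusted p = 0.0499), a call that held in 8 of 19 alternatives. Without vehicle replicate 1 the counts were 30 higher and 1 lower, against 12.1% and 15.03% of all genes, and Psme1 then rose (adjusted p = 0.0446).

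This comparison and that of Aβ42 alone against vehicle share no array, but their cells came from the same litters, so they are not independent. The 2 had 18 genes that rose in common, 81.8% of 22 and 85.7% of 21. The same overlap over all genes was not counted, so these shares do not set the proteasome genes apart from other genes. Psmb8, Psmc5, Psmd4 and Psme1 rose in cells without the agonist and Psmc4, Psmd1 and Psmd6 in cells with it; the test of that difference, the interaction, did not pass for any of them. Across the 47 genes the changes correlated at r = 0.91 (Spearman's rho = 0.83), and at r = 0.89 across all genes, where genes share arrays and are not replicates. The changes with AE1-329 in cells with and without Aβ42 also share litters but no array. They correlated at r = 0.69 over the 47 genes and 0.57 over all genes. Both Psmb10 and Psme3 fell in these last comparisons, 50% of 4 and 33.3% of 6, again with no count over all genes. Among listed genes Irf1 (0.82), Rela (0.62), Nfe2l1 (0.64) and Nfe2l2 (0.46) rose and Irf8 fell (-1.09). Tap2 (0.22) and Tapbpl (0.33) rose, while Tap1 (0.17) and Nlrc5 (-0.02) did not pass.

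Aβ42 with AE1-329 against vehicle gave 15 genes higher and 1 lower, against 9.27% and 11.9% of all genes, with a median of 0.16, against -0.01 over all genes. In 23 genes the arrays with both agents all lay above vehicle and in 2 all lay below, against 13.3% and 17.0% of all genes. The largest changes were those of Psmd10 (1.10 ± 0.06), Psmd5 (0.73 ± 0.11), Psmd11 (0.71 ± 0.07), Psme2 (0.64 ± 0.06) and Psma6 (0.52 ± 0.07). The probe set shared by Psme2 and Psme2b had 0.27 and did not pass (adjusted p = 0.095 over all probe sets). Psmc1 was among the 15, and its second probe set had 0.31 and did not pass (adjusted p = 0.074 over all probe sets). Psmb10 rose by 0.25 ± 0.08 (adjusted p = 0.0348), which was lost without vehicle replicate 1 (0.16, adjusted p = 0.10) and without replicate 1 or 3 of the combined treatment (adjusted p = 0.061 and 0.154). Psmb8 (0.16), Psme1 (0.17) and Psmb9 (0.07) did not pass. Psmg2 was 1.43-fold lower (-0.52 ± 0.06, adjusted p = 4.6e-05). Psmg1 (-0.20) fell as a second gene with litter as a block (adjusted p = 0.0361), and without vehicle replicate 1 Psmg1 and Psmg4 fell beside Psmg2, 14 higher and 3 lower against 9.83% and 13.6% of all genes, with a median of 0.10 over the 47. Of the 11 inducers 5 rose and 1 fell, with Irf1 at 1.02 ± 0.10 and Irf8 at -1.28 ± 0.06. Nfe2l1 (0.50), Nfe2l2 (0.46) and, of the ubiquitin genes, Sqstm1 (0.92), Vcp (0.31) and Nploc4 (0.30) rose, while Nlrc5 (-0.07) did not pass.

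The interaction asked whether the agonist changed the size of the response to Aβ42. No proteasome gene passed, and the limma fit had none at an unadjusted p under 0.05, where 10.4% of all genes had one. After adjustment 1.03% of all genes were higher and 0.918% lower (1.95% in either direction). The differences of the 5 immunoproteasome and PA28 genes were -0.23 for Psmb8 (95% interval -0.58 to 0.11), -0.14 for Psmb9 (-0.49 to 0.20), -0.10 for Psme1 (-0.33 to 0.14), -0.05 for Psme2 (-0.23 to 0.14) and 0.04 for Psmb10 (-0.20 to 0.27). They were -0.07, -0.01, 0.01, -0.03 and 0.12 in the same order without vehicle replicate 1, and none passed. In the lists, Irf1 (-0.91 ± 0.14, adjusted p = 0.00434) and Irf9 (-0.51 ± 0.12, adjusted p = 0.0458) passed, both with a smaller change in the presence of AE1-329. Tap1 (-0.74, adjusted p = 0.135), Nlrc5 (-0.15), Nfe2l1 (0.19) and Nfe2l2 (0.08) did not. Without vehicle replicate 1, 3 of the 11 inducers passed on the lower side and none on the higher side. Of all genes 1.61% were then higher and 1.18% lower.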

How the data were processed

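The labels describe biotin-labelled total RNA of 12 samples hybridised to Affymetrix Mouse Gene 1.0 ST arrays. The deposited table holds log2 values for 35556 probe sets, and RMA and Partek 6.5 are named, without their role, in the submitters' processing notes. Of the probe sets 21789 had 1 symbol in the platform annotation, 1621 several and 12146 none. Each of 19938 genes was represented by its probe set of highest mean, and no filter on low values was applied. All 12 arrays were fitted with 4 group means (limma 3.58.1, lmFit and eBayes, R 4.3.3, 8 residual and 4.54 prior degrees of freedom). P-values were adjusted by Benjamini-Hochberg over all genes in each of 6 comparisons. The number of arrays limits the precision. Tests ran on simulated data first.

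Per the series' design text a replicate number is a litter. Deviations from group means of the 18 same-numbered pairs correlated at 0.0044 to 0.54 (mean 0.33), 17 above 0.1, and each of the 12 was most like an array of its own litter. The pairing comes from the shared litter, and litter as a block was an alternative, beside a mean of probe sets, all probe sets tested, only genes above the median level (which leaves out Psma8, Psmb11 and Psmg3), renewed quantile normalization, a trended robust prior, only the arrays compared, and each array left out. Medians, pair differences and listed genes without vehicle replicate 1 were added after seeing the data. The members and lists were chosen with earlier results of these data known. Psmc3ip and Psme3ip1, whose symbols go on with letters, were not counted. Values of every array are given for the immunoproteasome and PA28 genes and up to 5 members of smallest p in each direction per comparison, and up to 4 genes of smallest p per list, with Irf1, Nlrc5, Nfe2l1 and Nfe2l2 throughout. Promoters, 250 bases before each start, are RefSeq sequences of GRCm38.p6, searched on both strands.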

Additional observations from a re-analysis of the deposited data

Results flagged for a closer look

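In 2 genes every litter changed one way with Aβ42 in the presence of AE1-329 and the opposite way in its absence. Changes as small as 0.0001 counted towards this pattern of signs. The share of all genes with the same pattern was not counted, so the pattern does not set these 2 genes apart from other genes. For the α-ring gene Psma1 the changes by litter were -0.03, -0.03 and -0.06 with AE1-329 and 0.20, 0.0001 and 0.0029 without it (means -0.04 and 0.07, difference -0.106). Its interaction was tested and did not pass (adjusted p = 0.841). Without vehicle replicate 1 the mean change without AE1-329 was 0.00033 and the interaction -0.04. For the chaperone gene Psmg3 the changes were -0.04, -0.04 and -0.13 with AE1-329 and 0.06, 0.05 and 0.24 without it (means -0.07 and 0.12, difference -0.184, interaction adjusted p = 0.697). In both genes neither mean change passed on its own.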

How the results depend on the processing

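Of the 52 values for single genes, 32 were called, and over the alternatives these gave 608 values, of which 540 kept the call and 68 lost it while keeping the sign. Calls held in all alternatives for 17 of 23 genes with Aβ42 alone against vehicle, 2 of 4 for the combined treatment against Aβ42 alone, 1 of 6 for AE1-329 alone, 17 of 22 for the combined treatment against AE1-329 alone and 9 of 16 for it against vehicle. Leaving out 1 array at a time gave 16 to 23 genes higher and 1 lower with Aβ42 alone against vehicle, 0 higher and 2 to 8 lower for the combined treatment against Aβ42 alone, 0 to 1 higher and 1 to 7 lower for AE1-329 alone, 17 to 30 higher and 0 to 1 lower for the combined treatment against AE1-329 alone, 11 to 19 higher and 1 to 3 lower for it against vehicle, and 0 in the interaction. For the combined treatment against Aβ42 alone, 7 genes fell with the replicate block or only the arrays compared and 2 with all probe sets tested. For AE1-329 alone, 1 gene rose with the replicate block, only genes above the median level, renewed quantile normalization or the trended robust prior, and 10 fell with genes above the median level, 2 with all probe sets and 1 with only the arrays compared. Against AE1-329 alone, 0 genes fell with the combined treatment under all probe sets, renewed quantile normalization or the trended robust prior. Against vehicle, 9 genes rose with only the arrays compared and 2 fell with the replicate block. The cause of these shifts was not tested, beyond the smaller number of arrays or larger number of tests in the setting itself. The replicate block also made calls, beyond those given above, for Psma7 (adjusted p = 0.049) and Psmc5 (0.013) in the combined treatment against AE1-329 alone, and for Psma1 (0.0341), Psma7 (0.045), Psmc2 (0.0351), Psmc4 (0.014), Psmd4 (0.0467) and Psmd13 (0.0257) in the combined treatment against vehicle, and it changed no other call among the 47 genes.

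Values that changed sign were all uncalled, and did so when an array was left out. With AE1-329 alone Psmb8 ranged from -0.19 to 0.091, Psmb9 from -0.067 to 0.15 and Psme1 from -0.080 to 0.097. For the combined treatment against AE1-329 alone Psmb9 ranged from -0.051 to 0.077, and was -0.0027 after renewed quantile normalization. Against vehicle Psmb8 ranged from -0.0047 to 0.28 and Psmb9 from -0.066 to 0.15. In the interaction Psmb10 ranged from -0.022 to 0.12, Psme1 from -0.17 to 0.0051 and Psme2 from -0.086 to 0.0048.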

Other observations

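The microglial markers moved in both directions with Aβ42 alone against vehicle: Aif1 rose by 0.46 ± 0.07 and Tmem119 by 0.33 ± 0.09, while P2ry12 fell (-1.43 ± 0.11), as did Cx3cr1 (-0.30 ± 0.10), Itgam (-0.18 ± 0.05) and Trem2 (-0.17 ± 0.05). These 6 genes were named after their values were seen. Tmem119 (0.22, adjusted p = 0.0512) and Cx3cr1 (-0.24, adjusted p = 0.123) did not pass without vehicle replicate 1. Of the 8 lymphocyte markers Ms4a1 rose by 0.27 (adjusted p = 0.0501 without vehicle replicate 1), and of the 8 astrocyte markers Slc1a3 rose by 0.52. Pomp fell with the combined treatment against vehicle (-0.27 ± 0.09, adjusted p = 0.0494, and -0.14 with 0.0696 without vehicle replicate 1), as did the cap-bound deubiquitinase Uchl5 (-0.48, adjusted p = 0.00906). Psmf1, an inhibitor of the core, fell with the combined treatment against AE1-329 alone (-0.18 ± 0.06, adjusted p = 0.0446).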
